A study of Homo sapiens with 2 samples.

Results

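The transcription factor genes of sensory neurogenesis were followed through the differentiation of human embryonic stem cells into enteric neural crest: NEUROG1, NEUROG2, NEUROD1, NEUROD4, NHLH1, NHLH2, ISL1, POU4F1, ONECUT2 and ONECUT3. They were chosen by name and are 10 of the 33694 gene names that both count matrices list, and all 10 names were found in each. Their counts were read across the cell types and subtypes that the authors assigned.

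The data were 2 droplet-based 3′ single-cell RNA libraries from H9, an established human embryonic stem cell line. The D10 library came from adherent monolayers on day 10 of enteric neural crest (ENC) induction, after BMP4, SB431542 and the GSK3 inhibitor CHIR and then retinoic acid. The D15 library came from free-floating crestospheres on day 15, cultured from day 12 in suspension with FGF2 and CHIR. Cells of 2 biological repeats were mixed in each library and the metadata do not tell them apart, so n = 1 per stage, no difference has a replicate check, and stage, culture format, medium and library cannot be told apart. The D10 matrix held 9627 cells and the D15 matrix 6320 cells, with a median of 6713 and 11770.5 unique molecular identifiers (UMIs) per cell. The authors kept 7295 and 5336 of these cells. Kept D10 cells were named ENC, neuroepithelial progenitors (NEP), cranial placode (CP) and non-neural ectoderm (NNE), and kept D15 cells ENC, CP1, CP2, NEP and mesenchyme (Mes). Most ENC cells also carried a subtype, ENC 1 to ENC 4 at D10 and ENC 1′ to ENC 4′ at D15. Levels below are CPM, the UMI counts of a gene in a class of cells after scaling every class to the same total, and the ranges in parentheses are exact 95% Poisson intervals that cover counting error only. Levels were compared for 1 gene between cell classes, never between genes.

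Sensory neurons of the cranial ganglia arise from neurogenic placodes and from the neural crest. In these lineages a proneural basic helix-loop-helix (bHLH) factor, a neurogenin, starts neurogenesis in a dividing precursor and induces the Notch ligands and the later bHLH factors of the NEUROD and NHLH families. Homeodomain factors such as ISL1 and POU4F1 then specify sensory neuron identity, and ONECUT factors act in differentiating neurons of several lineages. All bHLH factors of this group act as dimers with widely expressed E proteins, bind DNA at E-boxes, and are held back by ID proteins, which sequester the E proteins.

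To show the regulatory sequence beside the levels, RefSeq windows of 300 bases around annotated start sites (250 before and 50 after, GRCh38.p14) were read for the 9 of 10 genes that have one, 10 windows in all because NHLH2 has 2. ONECUT3 has no entry. Each window was searched on both strands for the letters CAGATG (read as CATCTG on the other strand) and CAGCTG (its own reverse complement), E-box forms that neurogenic bHLH factors bind, and for ATTGAT, a core that ONECUT factors bind. Of the 9 genes, 6 hold CAGATG or CAGCTG, letters found in 29.8% of all 35116 windows (14.7% and 17.9% for each alone). These are NEUROD4, NHLH1, NHLH2, ISL1, POU4F1 and ONECUT2. The windows of NEUROG1, NEUROG2 and NEUROD1 hold neither. ATTGAT stands in the windows of NHLH1 and NHLH2 and in 6.26% of all windows. With 12 bases on each side, the E-boxes of NEUROD4 and NHLH2 overlap annotated exons, that of NEUROD4 only at the last flanking base, where the gene starts. The other 4 are shown in capitals with 12 bases on each side, 5′ to 3′ on the strand of the gene, at chr1:160366849-160366878 (plus strand, 210 bases before the start site), chr5:51383292-51383321 (plus, 144 bases before), chr13:78603650-78603679 (minus, 115 bases before) and chr18:57435269-57435298 (plus, 93 bases before).
NHLH1: atgcatggagaaCAGATGtccctgctcccc
ISL1: tgataatcagaaCAGCTGcgccgcgcgccc
POU4F1: gacagacggagaCAGCTGatgcctgtcagc
ONECUT2: cgcctcccggggCAGCTGcggcctcggagt

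Upstream stretches are shown in full for NEUROG1 and NHLH1, the earlier and a later factor of the cascade, whose levels went opposite ways between the stages. The NEUROG1 stretch is chr5:135535965-135536214 (minus strand) and the NHLH1 stretch chr1:160366821-160367066 (plus strand), both outside the annotated exons. Capitals mark the E-box CAGATG and the letters ATTGAT in NHLH1, and the NEUROG1 stretch holds none of the searched letters. A match is a description of the letters and was not tested as a binding site.
NEUROG1: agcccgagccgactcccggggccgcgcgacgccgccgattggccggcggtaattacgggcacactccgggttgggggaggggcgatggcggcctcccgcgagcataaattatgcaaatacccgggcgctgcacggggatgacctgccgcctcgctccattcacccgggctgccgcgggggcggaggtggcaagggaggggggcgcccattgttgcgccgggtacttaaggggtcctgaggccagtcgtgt
NHLH1: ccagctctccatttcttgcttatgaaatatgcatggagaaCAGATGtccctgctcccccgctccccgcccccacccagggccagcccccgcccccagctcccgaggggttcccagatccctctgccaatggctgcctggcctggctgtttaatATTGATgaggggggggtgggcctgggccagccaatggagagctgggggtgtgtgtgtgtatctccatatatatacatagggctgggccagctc

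Of the 10 genes, 9 were highest in the clusters named cranial placode, and NEUROG2 was all but absent. In D10 the 10 genes summed to 1158 CPM (1116 to 1201) in CP, 25.4 CPM in ENC, 18.3 CPM in NEP and 2.17 CPM in NNE. In D15 they summed to 1772 CPM (1719 to 1826) in CP1 and 1119 CPM (1018 to 1228) in CP2, against 18.5 CPM in ENC, 11.3 CPM in NEP and 5.35 CPM in Mes. Thinned to 3000 UMIs per cell, 281 of 323 CP cells (87.0%) and 205 of 208 CP1 cells (98.6%) had a UMI of at least 1 of the genes, against 6.40% of ENC cells in D10 and 5.09% in D15. None of 235 NNE cells did, which allows a share of up to 1.28%. The median depth before thinning was 7438 UMIs in CP, 7349 in NNE and 11734.5 in CP1. The 9 genes other than NEUROG2 had their highest D10 level in CP, as 21.1% of all genes did, and at D15 7 had it in CP1 (13.9%) and ONECUT2 and ONECUT3 in CP2 (33.3%). The 9 genes with at least 10 UMIs were all at least 2-fold higher in CP than in the other kept D10 cells, which 4.15% of all genes tested were (6.11% were lower). All 9 were likewise higher in CP1 than in the other kept D15 cells, which 12.7% were (6.86% were lower). The clusters were built from these same counts, so these contrasts describe them and test nothing. The median log2 ratio of the 9 genes, on CPM + 1, was 5.16 for CP and 5.00 for CP1, beside −0.11 and 0.11 over all genes tested.

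**Figure D1:**
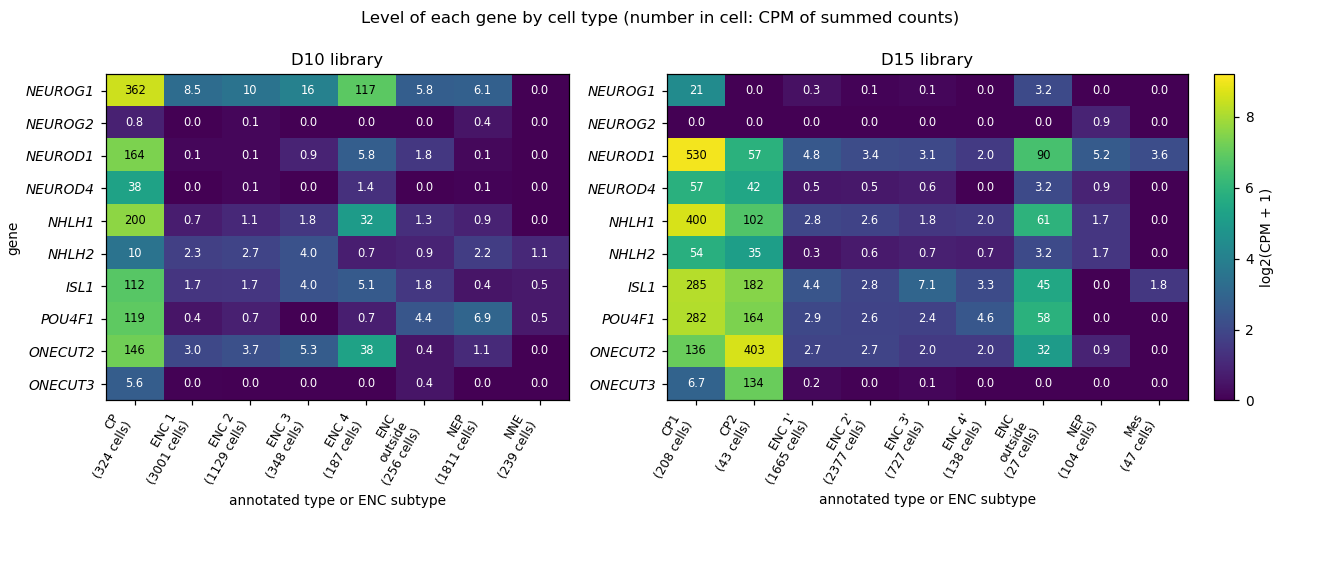
Heat map of the level of each gene (rows) in each annotated type or ENC subtype (columns) of both libraries, as log2(CPM + 1) in colour with the CPM printed in each cell. The columns CP, CP1 and CP2 are bright for most genes, but NEUROG1 has 0 UMIs in CP2. ONECUT3 is at only 5.58 CPM in CP and 6.70 CPM in CP1. ENC 4 is bright for NEUROG1, NHLH1 and ONECUT2, and the row of NEUROG2 is dark throughout.

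The cluster names were compared with marker genes. Of the placode regulators, EYA2 was at 33.9 CPM in CP and 31.0 CPM in CP1, and SIX4 at 12.0 and 18.0 CPM. The other kept cells of each library, pooled, had at most 1.25 CPM of EYA2 and 4.01 CPM of SIX4. Single classes among them were higher, such as ENC 4 with 9.41 CPM of EYA2. In CP2 EYA2 was at 4.98 CPM, EYA1 at 24.9 CPM and SIX4 at 0 UMIs, while the 5 NEP markers summed to 413 CPM, of which PAX6, a neural and lens factor, gave 381 CPM, and SOX1 and HES5 had 0 UMIs. In the D15 cluster named NEP they summed to 266 CPM. CP2 is called only by its label here, since these markers go against it. Of the ENC markers, SOX10 was at 29.9 CPM in CP and 119.7 CPM in ENC at D10, and at 9.21 and 103 CPM in CP1 and ENC at D15. ERBB3 was at 11.2 and 68.8 CPM at D10 and at 7.54 and 107 CPM at D15.

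NEUROG1, a neurogenin of placodal and neural crest sensory precursors (chr5:135534282-135535949, minus strand, GRCh38), was high in CP at D10 and low in every class at D15. It was at 362 CPM (339 to 386) in CP, from 908 UMIs, and at 20.9 CPM (15.5 to 27.6) in CP1, from 50 UMIs, 17.3-fold lower. CP2 held 0 UMIs of NEUROG1, which allows up to 7.46 CPM. In thinned cells its UMIs were seen in 193 of 323 CP cells (59.8%, exact Clopper-Pearson interval 54.2 to 65.1), in 14 of 208 CP1 cells (6.73%, 3.73 to 11.04) and in 0 of 43 CP2 cells. Without thinning the shares were 79.0% in CP and 17.8% in CP1. In ENC it was at 13.2 CPM at D10 and 0.18 CPM at D15. Of 8 genes with enough counts in ENC, NEUROD1 and POU4F1 were at least 2-fold higher at D15 (5.96% of all genes tested) and NEUROG1 and NHLH2 lower (5.15%). NEUROG2, a neurogenin of early migrating neural crest and many central lineages (chr4:112513516-112516172, minus strand), gave 12 UMIs in all of D10 and 9 in all of D15. Of the 9 kept-cell UMIs at D10, 6 were in NEP and 2 in CP, so its level could not be ordered between types at this depth.

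NEUROD1, a differentiation bHLH factor downstream of the neurogenins (chr2:181673088-181680876, minus strand), was higher in CP1 than in CP, the opposite of NEUROG1. Its level was 164 CPM (149 to 181) in CP and 529.6 CPM (501 to 559.6) in CP1, 3.22-fold higher, and 57.2 CPM (36.3 to 85.9) in CP2. After thinning, 26.0% of CP cells and 76.9% of CP1 cells (160 of 208, 70.6 to 82.5) had a NEUROD1 UMI, against 0.14% of ENC cells at D10 and 1.26% of ENC cells at D15. Without thinning, 44.1% of CP cells and 98.1% of CP1 cells did. The gene overlaps CERKL on the same strand in GENCODE v29, and how reads in the overlap were counted is not given in the sources used here. NEUROD4, a related factor (chr12:55019945-55030014, plus strand), was at 38.3 CPM (31.0 to 46.8) in CP, 56.9 CPM (47.8 to 67.4) in CP1 and 42.3 CPM (24.6 to 67.7) in CP2. The CP1 interval did not overlap that of CP but overlapped that of CP2, and its ratio of CP1 to CP was 1.49.

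NHLH1 and NHLH2, bHLH factors switched on as neuronal precursors leave the cell cycle, were both higher in CP1 than in CP. NHLH1 (chr1:160367067-160372848, plus strand) was at 199.8 CPM (183 to 218) in CP, 399.8 CPM (375 to 426) in CP1 and 102 CPM (73.2 to 138) in CP2. Its log2 ratio of CP1 to CP was 0.997 on CPM + 1, just under the 2-fold limit. NHLH2 (chr1:115836377-115843917, minus strand) was at 10.4 CPM (6.77 to 15.2) in CP and 54.4 CPM (45.5 to 64.6) in CP1, 5.25-fold higher, and 34.8 CPM in CP2. NHLH2 was the bHLH gene spread most widely at D10 among those with at least 10 kept UMIs. Of its kept UMIs 17.8% were in CP, against 61.3% for NEUROG1, 85.2% for NHLH1 and 95.4% for NEUROD1. It was at 2.35 CPM in ENC and 2.21 CPM in NEP at D10. In D15 its level in ENC was 0.54 CPM and 73.9% of its kept UMIs were in CP1.

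ISL1 and POU4F1, homeodomain factors that sensory neurons of the cranial and dorsal root ganglia share, stood side by side. ISL1 (chr5:51383391-51394738, plus strand) had 112 CPM (99.0 to 126) in CP. Its level was 285 CPM (264 to 307) in CP1 and lower, 182 CPM (142 to 228), in CP2. POU4F1 (chr13:78598362-78603560, minus strand) had 119 CPM (106 to 134) in CP, and again the CP1 level of 282 CPM (261 to 304) exceeded the 164 CPM (127 to 209) of CP2. The CP1 level was 2.55-fold that of CP for ISL1 and 2.37-fold for POU4F1, and in both genes the intervals of CP1 overlapped neither CP nor CP2. At D10 the second-highest level of POU4F1 was in NEP, at 6.91 CPM from 97 UMIs, where 2.06% of thinned cells had a UMI against 0.18% of ENC cells. The antisense gene RNF219-AS1 overlaps POU4F1 in the annotation, and whether counting used strand is not given in the sources used here.

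ONECUT2 and ONECUT3, cut-homeodomain factors, followed another order and were highest in CP2. ONECUT2 (chr18:57435685-57491297, plus strand) was at 146 CPM (131 to 161) in CP and 136 CPM (122 to 152) in CP1, with overlapping intervals, and at 403 CPM (343 to 470.0) in CP2, 2.96-fold the CP1 level. For ONECUT3 (chr19:1752373-1780988, plus strand) the level was 5.58 CPM (3.05 to 9.37) in CP, 6.70 CPM (3.83 to 10.9) in CP1 and, 20.1-fold higher, 134 CPM (100.9 to 175) in CP2. Thinned ONECUT2 UMIs were seen in 31 of 43 CP2 cells (72.1%, 56.3 to 84.7) and 71 of 208 CP1 cells (34.1%, 27.7 to 41.0), and ONECUT3 UMIs in 12 and 3 cells. Of the 9 genes with enough counts, 2 were at least 2-fold higher in CP2 than in CP1, beside 17.2% of all genes tested, and NEUROG1, NEUROD1 and NHLH1 were at least 2-fold lower, beside 13.8%. NEUROD4 and NHLH2 had overlapping intervals in the 2 clusters. CP2 holds 43 cells and 401995 UMIs, so its values are the least precise.

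Between CP at D10 and CP1 at D15, 4 of the 9 genes with enough counts were at least 2-fold higher and 1 was lower. The 4 were NEUROD1, NHLH2, ISL1 and POU4F1, beside 16.3% of all genes tested that were at least 2-fold higher, and the lower gene was NEUROG1, beside 9.44%. The median log2 ratio of the 9 was 1.00 and that of all genes 0.06, with a range from −4.05 for NEUROG1 to 2.29 for NHLH2. The 2 clusters were named separately in 2 libraries, and no test was possible.

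**Figure D2:**
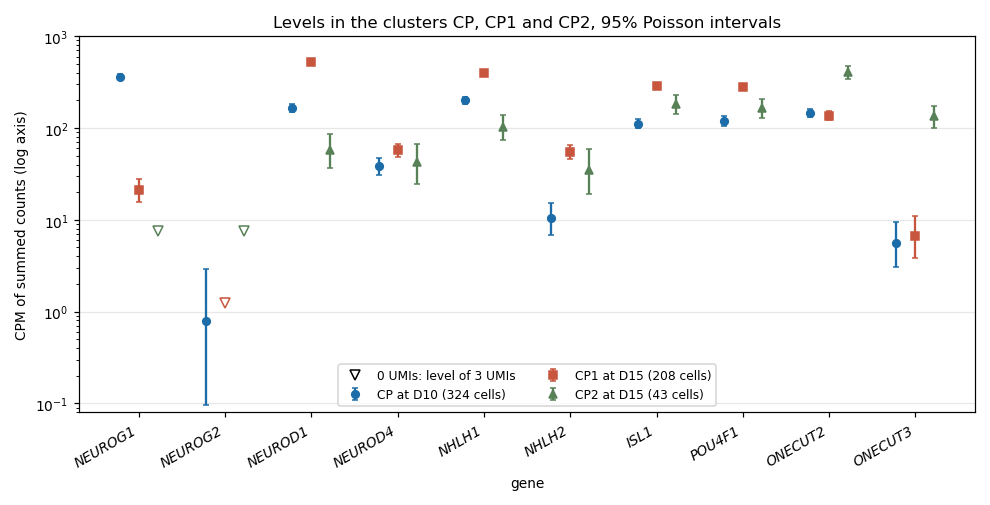
Level of each gene in CP (circles, 324 cells), CP1 (squares, 208 cells) and CP2 (triangles, 43 cells), in CPM on a log axis with 95% Poisson intervals, open triangles marking 0 UMIs drawn at the level of 3 UMIs. NEUROG1 stands at 362 CPM in CP and 20.9 CPM in CP1, NEUROD1 at 164 and 529.6 CPM, and ONECUT3 stands at 134 CPM in CP2 against 6.70 CPM in CP1.

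The genes overlapped in single cells. In thinned CP cells the median number of the 10 genes with a UMI was 2, with a maximum of 7, and 61 of 323 cells (18.9%) had 4 or more. In CP1 the median was 3 and 99 of 208 cells (47.6%) had 4 or more, against 1 of 4934 ENC cells at D15 and 0 of 4919 at D10. In CP, 59 cells had UMIs of both NEUROG1 and NEUROD1, where the product of the shares would give 50.2 cells. NEUROG1 and ONECUT2 were together in 52 CP cells, beside a product of 55.0. NEUROD1 and POU4F1 were seen together in 36 CP cells, beside a product of 22.1, and ISL1 and POU4F1 in 31, beside 18.7. Further pairs also exceeded their products, among them NEUROD1 and NHLH1 with 47 cells (product 33.0) and NHLH1 and ISL1 with 38 (27.9). Some pairs did not, with 17 cells for ISL1 and ONECUT2 (product 20.2) and 24 for POU4F1 and ONECUT2 (24.2). Counts above and below the product were seen both with and without NEUROG1. In CP1 the counts were 111 cells for NEUROD1 and NHLH1 (product 110.8), 69 for ISL1 and POU4F1 (65.2) and 33 for ISL1 and ONECUT2 (38.9). Cells share a library and a depth, so these counts are descriptions.

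The levels also differed by the cell cycle phase that the authors assigned to each cell. In CP, 209 of 324 cells (64.5%) were in G1, 59 in S and 56 in G2M, and in CP1 164 of 208 (78.8%) were in G1, 8 in S and 36 in G2M, against 39.0% of ENC cells in G1 at D10 and 34.7% at D15. NHLH1 was lower in G2M than in G1 cells of both clusters. It was at 247 CPM (223 to 274) in G1 and 144 CPM (112 to 181) in G2M cells of CP. In CP1 it was at 461 CPM (431 to 493) and 150.5 CPM (116 to 192). ONECUT2 was at 197 CPM (175 to 221) in G1 and 56.7 CPM (37.7 to 82.0) in G2M in CP, but stood at 135 CPM (119 to 153) and 148 CPM (114 to 189.5) in CP1. POU4F1 went the other way, from 103 CPM (87.6 to 121) in G1 to 172 CPM (138 to 213) in G2M in CP and from 258 CPM (235 to 282) to 383 CPM (327 to 447) in CP1. NEUROD1 was higher in G2M in CP, at 245 CPM (203 to 293) against 139.5 CPM (121 to 160), while its intervals overlapped in CP1. NEUROG1 was at 356, 367 and 377 CPM in G1, S and G2M cells of CP, within their intervals, and so was ISL1 at 118, 93.7 and 109 CPM. The proliferation gene MKI67 was at 7.3 CPM in G1 and 340 CPM in G2M cells of CP, and at 12.4 and 237.5 CPM in CP1.

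**Figure D3:**
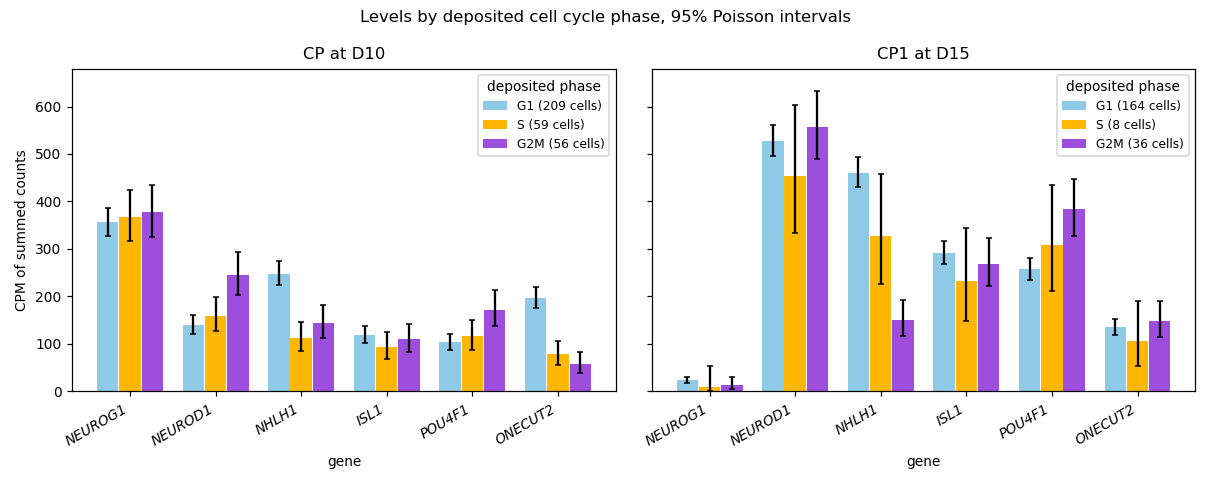
Level of 6 genes by deposited phase in CP at D10 (left) and CP1 at D15 (right), as bars in CPM from 0 with 95% Poisson intervals. NHLH1 is lower in G2M than in G1 in both clusters, POU4F1 is higher in both, and ONECUT2 is lower in G2M in CP but not in CP1.

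Among the numbered ENC subtypes, ENC 4, a D10 subtype of 187 cells, had the highest level of NEUROG1, NHLH1 and ONECUT2. NEUROG1 was at 117 CPM (99.2 to 136) in ENC 4, against 8.54 CPM in ENC 1, 10.2 CPM in ENC 2 and 15.6 CPM in ENC 3. NHLH1 was at 31.9 CPM (23.1 to 42.8) against 0.65, 1.11 and 1.78 CPM, and ONECUT2 at 38.4 CPM (28.7 to 50.2) against 2.96, 3.70 and 5.34 CPM. The later factors were far lower there than in CP: NEUROD1 was at 5.79 CPM from 8 UMIs, ISL1 at 5.07 CPM from 7, and POU4F1 at 0.72 CPM from 1. As a percent of the CP level, ENC 4 held 32.2% for NEUROG1, 26.4% for ONECUT2 and 15.9% for NHLH1, but 3.52% for NEUROD1, 4.54% for ISL1 and 0.61% for POU4F1. Of 7 genes with enough counts, 5 were at least 2-fold higher in ENC 4 than in ENC 1 to ENC 3, beside 2.5% of all genes tested, and NHLH2 was lower (1 UMI, beside 4.42%). The subtypes were clustered on these same counts. The intervals of ISL1 and of NHLH2 overlapped between ENC 4 and the other subtypes. In thinned cells 24.1% of ENC 4 cells (45 of 187, 18.1 to 30.8) had a NEUROG1 UMI, and 2 cells had both NEUROG1 and ONECUT2 (product 4.8).

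Markers of CP moved with these genes in ENC 4. EYA2 was at 9.41 CPM in ENC 4 against 0.39 CPM in ENC 1 to ENC 3 and 33.9 CPM in CP, and SIX4 at 7.24 against 2.61 and 12.0 CPM. Of the ENC markers, SOX10 was at 104 CPM in ENC 4 against 127 CPM in ENC 1 to ENC 3, FOXD3 at 6.52 against 19.7 CPM and ERBB3 at 18.8 against 73.8 CPM. SST, the somatostatin gene, which was at 122 CPM in CP, had 0 UMIs in ENC 4, which allows up to 2.17 CPM, and STMN2, a neuronal microtubule gene, was there at 1.06% of its CP level. The Notch ligand gene DLL1 was at 30.4 CPM in ENC 4 against 0.60 CPM in ENC 1 to ENC 3, and HES6, a bHLH gene of early neurogenesis, at 253 against 54.6 CPM. What part CP cells or their RNA had in the ENC 4 values was not tested.

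In D15 the levels in ENC, as a percent of the placode level, lay closer together. Each of the 9 genes was in ENC at between 0.73% (NHLH1) and 2.01% (ONECUT2) of its CP1 level, and SST and STMN2 were at 0.72% and 0.92%. In D10 the same percentages of the CP level ran from 0.21% for NEUROD4 to 22.7% for NHLH2, with SST at 0.11%. The share of thinned D15 ENC cells with a NEUROD1 UMI, 1.26%, did not exceed that of D15 NEP cells, 1.92% (2 of 104, 0.23 to 6.77). The only D15 subtype contrasted was ENC 3′. ISL1 was there at 7.08 CPM (5.37 to 9.15) against 3.42 CPM in the other numbered subtypes, 2.07-fold by CPM and under 2-fold on CPM + 1. None of the 7 genes with enough counts passed 2-fold in that contrast, where 0.741% of all genes were higher and 0.895% lower. The 27 ENC cells at D15 without a subtype had 90.2 CPM of NEUROD1, 61.2 CPM of NHLH1, 58.0 CPM of POU4F1 and 45.1 CPM of ISL1, 15.3 to 20.5% of the CP1 levels, beside 14.1% for SST. What part CP1 cells or their RNA had in the counts of ENC cells was not tested.

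**Figure D4:**
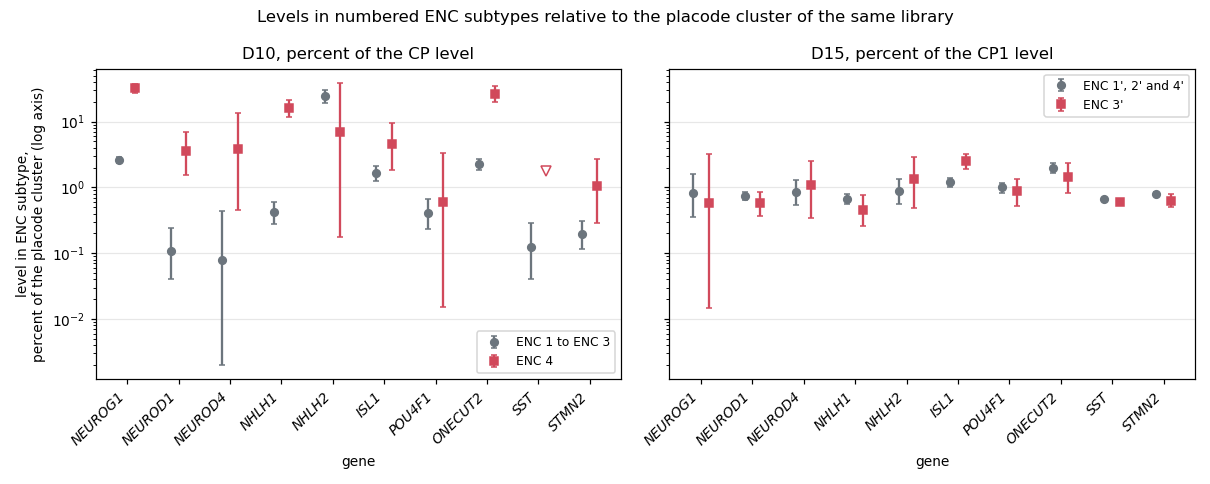
Level of 8 genes and of SST and STMN2 in numbered ENC subtypes as a percent of the level in CP (left, D10) or CP1 (right, D15), on a log axis, with 95% Poisson intervals of the ENC count and an open triangle for 0 UMIs at the level of 3 UMIs. In D10, ENC 4 (squares) stands at 32.2% for NEUROG1 and at 0 UMIs for SST, while in D15 the genes, SST and STMN2 lie at low percentages close to each other.

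Cells that the authors had removed held most of the UMIs of these genes at D15. Of 25315 UMIs of the 10 genes in the D15 matrix, 19585 (77.4%) were in the 984 removed cells, which held 28.98% of all UMIs. At D10 the removed cells held 919 of 5020 (18.3%), beside 21.5% of all UMIs. All 9 genes with at least 10 UMIs at D15 had over 50% of them in removed cells, from 61.7% for ONECUT3 to 82.3% for POU4F1, which 8.34% of all genes did. None did so at D10, where 0.473% of genes did. Matching of expression profiles, with the 10 genes left out, placed 340 removed D15 cells closest to CP1. These held 18875 UMIs of the genes at 1718 CPM, near the 1772 CPM of kept CP1 cells. NEUROD1 was at 489.9 CPM (477 to 503) in them, NHLH1 at 327 CPM (316 to 337), ISL1 at 236 CPM (227 to 245), NEUROG1 at 22.8 CPM (20.0 to 25.8) and ONECUT2 at 152 CPM (145 to 159.5). POU4F1, at 374 CPM (363 to 385), was higher than in kept CP1 cells and NHLH1 and ISL1 lower, with intervals that did not overlap. These cells had a median of 26584.5 UMIs against 11734.5 in kept CP1 cells, and 949 of the 984 removed cells lay over the authors' upper limits on genes or UMIs. At D10, 65 removed cells were placed closest to CP, with a median of 3593 UMIs. They held 1597 CPM of the genes, with ONECUT2 at 333 CPM (272 to 402) against 146 CPM in kept CP cells.

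**Figure D5:**
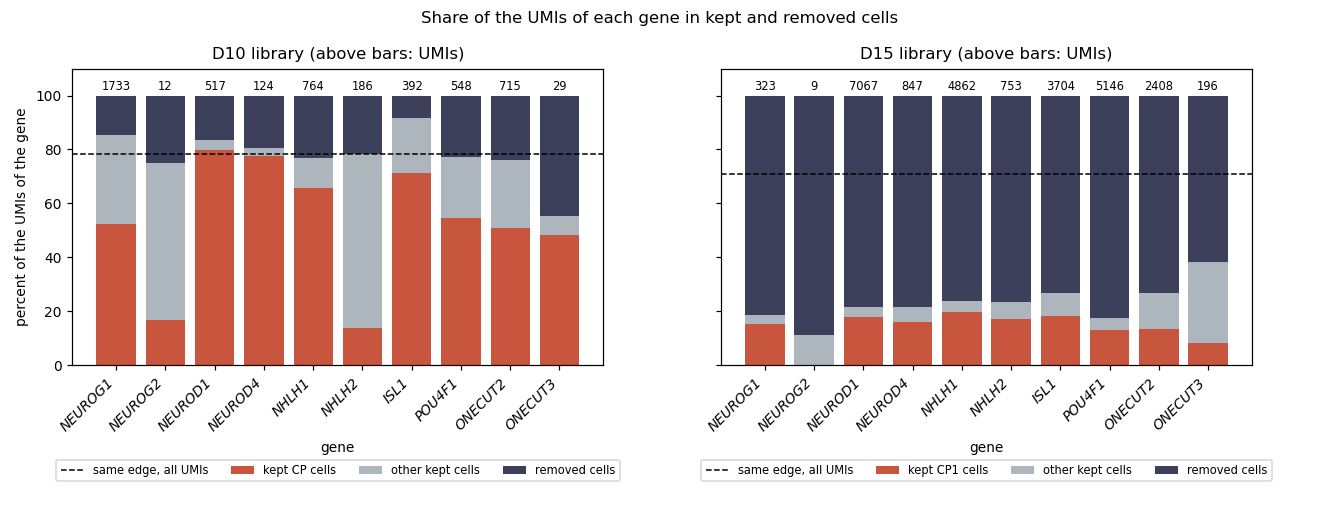
Percent of the UMIs of each gene in kept cells of CP or CP1, in other kept cells and in removed cells, as stacked bars from 0 to 100 with the number of UMIs above, the dashed line marking where removed cells would start if they held the share they hold of all UMIs. At D10 the dark part is near the line for most genes, and at D15 it covers 61.7 to 88.9% of every bar.

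The difference between whole libraries depended on whether removed cells were counted. Over all deposited cells, 8 of the 10 genes were at least 2-fold higher at D15 than at D10, beside 6.23% of all genes tested, and NEUROG1 was lower, at 3.80 CPM against 24.6 CPM, beside 7.43%. The median log2 ratio was 1.71, and that of all genes −0.11. NEUROD1 went from 7.33 to 83.2 CPM and POU4F1 from 7.77 to 60.6 CPM. Over kept cells only, the median was 0.66 and 2 genes remained at least 2-fold higher, NEUROD1 (7.81 to 25.4 CPM) and ISL1 (6.49 to 16.4 CPM), beside 5.44% of all genes. ONECUT3 was under 2-fold only on CPM + 1, at 1.24 against 0.29 CPM, 4.30-fold by CPM. NEUROG1 remained lower, at 0.99 against 26.8 CPM, beside 7.94%. In such sums, more cells of a type and more RNA per cell cannot be told apart.

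Paralogs of the 10 genes were mostly at low counts. Of 7 paralogs, 3 had enough counts and all 3 were at least 2-fold higher in CP1 than in other D15 cells, as 12.7% of all genes were: POU4F2 at 27.2 CPM against 0.14, ONECUT1 at 23.5 against 0.50 and ISL2 at 8.79 against 0.48. NEUROG3 and NEUROD6 had 0 UMIs in CP1. POU4F2 had 0.40 CPM in CP at D10, a log2 ratio of CP1 to CP of 4.33.

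Among the partners and inhibitors, the 3 E protein genes and the 4 ID genes summed to 776 CPM in CP and 189 CPM in CP1. In CP1, TCF4 was at least 2-fold higher than in the other D15 cells (65.7 against 28.1 CPM, beside 12.7% of all genes) and ID3 and ID4 were lower (6.86%). All 4 ID genes were at least 2-fold lower in CP than in the other D10 cells (6.11%), with ID3 at 326 against 932 CPM. Between CP and CP1, 5 of the 7 genes were at least 2-fold lower in CP1 (9.44% of all genes), with ID3 at 10.9 CPM, and TCF4, an E protein gene, was at 139 CPM in CP. In CP2 ID3 was at 117 CPM and ID1 at 102 CPM, 3.31 and 2.44 above CP1 on the log2 scale.

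Genes of the neurogenesis cascade (Notch ligands, EBF factors, early neuronal genes) were higher in the same clusters. In CP1, 15 of 16 were at least 2-fold higher than in other D15 cells (median log2 ratio 3.58, beside 12.7% of all genes called), and in CP all 15 with enough counts were (3.40, beside 4.15%). ELAVL3, a neuronal RNA-binding protein gene, reached 244 CPM in CP1 and EBF1, a helix-loop-helix gene of neuronal differentiation, 181 CPM. From CP to CP1, 6 of 15 were at least 2-fold higher (16.3% of all genes), among them EBF1 (20.3 to 181 CPM) and DLL3 (63.8 to 146 CPM), and 3 were lower (9.44%), with HES6 going from 423 to 65.7 CPM and DLL1 from 25.5 to 6.70 CPM. The Notch pathway modifier gene MFNG was the third, at 75.4 against 5.44 CPM.

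Of the sensory neuron genes, some were higher in CP1 and others were absent. In CP1, 9 of 13 with enough counts were at least 2-fold higher than in other D15 cells (median 2.39, beside 12.7% of all genes called), among them STMN2 at 1543 CPM and TLX3, a homeobox gene of sensory neurons, at 44.4 CPM. From CP to CP1, 6 of 10 were at least 2-fold higher (16.3% of all genes) and none was called lower, with TLX3 at 1.99 CPM in CP. NTRK3 was under the 2-fold limit only on CPM + 1 (log2 ratio −0.91), at 4.19 CPM in CP1 against 8.77 CPM in CP. NTRK2, the BDNF receptor gene, and RUNX3, a factor of proprioceptive neurons, had 0 UMIs in both CP and CP1. PAX3, a regulator of placode and neural crest precursors, was at 71.4 CPM in CP and 4.19 CPM in CP1.

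Among factors of autonomic and enteric neurons, TLX2, a homeobox gene of that group, stood at 23.9 CPM in CP and 24.7 CPM in CP1. PHOX2A, HAND2, GATA2 and RET had 0 UMIs in CP1, and PHOX2A was at 44.8 CPM in CP2. Of the other proneural genes, ATOH1 had 0 UMIs in both clusters and OLIG2 was at 3.35 CPM in CP1 from 8 UMIs. LMO1, a LIM-only gene, was the 1 of 7 LIM cofactor genes with enough counts that was at least 2-fold higher in CP1, at 17.6 against 2.28 CPM, and LMO4 was at 34.7 against 134 CPM.

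Across the 17 annotated types and ENC subtypes of both libraries, NEUROG1 had a profile less like those of the other genes, and NEUROG2 had too few UMIs for one. Pearson r of log2(CPM + 1) among the 8 genes other than the neurogenins ran from 0.63 (NEUROD1 and ONECUT3) to 0.95 (NHLH1 and ONECUT2). NEUROG1 had r between 0.08 (ONECUT3) and 0.52 (NHLH1) with these 8. INSM1, a zinc finger gene of neurogenic precursors, was among the 3 genes most like NEUROD1 (r = 0.96), NEUROD4 (0.95), NHLH1 (0.97) and POU4F1 (0.95), out of 14408 candidates. The genes most like NEUROG1 were SLC38A5 (0.93), ZBTB18 (0.92) and KIF19 (0.91), and those most like ISL1 were CTD-2314G24.2 (0.97), GABBR2 (0.95) and SCG2 (0.95). ONECUT3 was most like CDK5R2 (0.97), CHRNA4 (0.97) and CAMK2B (0.97), and ONECUT2 like TUBB3 (0.96), RAB33A (0.95) and CTD-2314G24.2 (0.95). PPP1R17 (0.95) was another of those most like NEUROD1. The classes share libraries and depth, and only 15 of the 27 named pairs stayed among the nearest with a pseudocount of 5 CPM and 5 with Spearman's rho.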

How the data were processed

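The D10 and D15 libraries were made with 10x 3′ v3.1 chemistry. The authors extracted the deposited UMI counts per gene and cell with kallisto and bustools, demultiplexed hashtags and clustered in Seurat. The labels also list Cell Ranger, Seurat 4.0.4 and GRCh38 without a role, and the annotation behind the counts is not given in the sources used here. The authors kept cells with over 1250 (D10) or 1500 (D15) and under 3500 genes, under 20000 UMIs, and under 5% or 10% mitochondrial reads. The deposited metadata also hold the mitochondrial percent and novelty score of each cell, and the types, subtypes and phases used here. No doublet caller was run here, and none is named by the authors. Those upper limits bear on doublets. How droplets with mixed hashtags were handled in demultiplexing is not given in the sources used here. The libraries share 102 cell barcodes and held 70488169 and 84976253 UMIs, so 3 UMIs, the limit that a count of 0 allows, are 0.0426 and 0.0353 CPM.

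Counts were summed per class and scaled to CPM (Python 3.11.15, numpy 2.4.6, scipy 1.17.1, pandas 2.3.3). Genes with at least 10 UMIs in both groups together were compared on log2(CPM + 1), and called at 2-fold or more. With 1 library per stage there was no test and no p-value. Shares of cells were taken after thinning each cell to 3000 UMIs, which left out shallower cells (1 in CP, 0 in CP1). Removed cells were assigned to the type of the highest multinomial likelihood, without the 10 genes, and this returned 91.0% of kept CP and 95.7% of kept CP1 cells to their own type. The genes most like each of the 10 were the 3 with the highest Pearson r among genes with at least 50 UMIs. Named list genes were those with the largest and smallest ratios in CP1. The log2 ratios, with the scaling to CPM inside them, and the assignment of cells to types were tested on simulated data. The 10 genes, the lists and the markers were chosen with earlier results of these data known. Alternatives were TMM scaling (edgeR 4.0.16, R 4.3.3), pseudocounts of 0.1 and 5, per-cell means, thinning and kept cells only. No column of the files was left unmapped to a sample. Some genes of these lists are not reported here.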

Additional observations from a re-analysis of the deposited data

Results flagged for a closer look

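Cells that the authors removed, and that their deposited types do not cover, also held the genes. At D10 the 65 removed cells with a profile closest to CP had 100 UMIs of NEUROG1 (314 CPM), 67 UMIs of NEUROD1 (210.2 CPM) and 57 UMIs of POU4F1 (179 CPM), each above the limit that a count of 0 allows. In kept CP cells the levels were 362, 164 and 119 CPM, and the intervals overlapped for NEUROG1 and NEUROD1 but not for POU4F1. At D15 the 340 removed cells with a profile closest to CP1 had 250 UMIs of NEUROG1, 5382 UMIs of NEUROD1 and 4107 UMIs of POU4F1. Of the 984 removed D15 cells, 949 lay over the authors' upper limits on genes or UMIs, and whether they hold single cells was not tested.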

How the results depend on the processing

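No result changed direction under any alternative run. No paired analysis was possible because each stage has 1 library, and no library could be left out. Over kept cells only, the median log2 ratio of D15 to D10 over the 10 genes was 0.66 in place of 1.71, since the removed cells held 77.4% of the counts at D15, and NEUROD4, NHLH1, NHLH2, POU4F1, ONECUT2 and ONECUT3 no longer reached 2-fold on CPM + 1 (by CPM, ONECUT3 was 4.30-fold higher, against 5.61-fold over all cells). Summed levels moved to 1207 CPM in CP with assigned removed cells (1158 as reported), and in CP1 to 1830 CPM as a mean of per-cell values and 1869 CPM after thinning (1772 as reported). The share of CP1 cells with at least 1 of the genes was 92.3% when 2 UMIs were asked for. Of the 27 nearest pairs, 15 remained with a pseudocount of 5 CPM and 5 with Spearman's rho. Between CP and CP1, 5 genes passed 2-fold as reported, 7 as a mean of per-cell values and 6 in G1 cells only, alternatives chosen after seeing the data. With a pseudocount of 5, ONECUT3 in CP1 was at a log2 ratio of 0.96, and NHLH2 and ONECUT3 between the libraries at 0.86 and 0.43. TMM scaling moved the median of all genes from −0.11 to −0.01. Depth limits NEUROG2, ONECUT3 outside CP2, and all values of CP2.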
